A study of Mus musculus with 30 samples.

Results

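Hippocampal gene expression was compared between 7 male mice kept alone after weaning (social isolation, SI) and 8 males kept in groups (GH), across all genes of the deposited count table. These are the 15 mice numbered 1 to 39 out of 30 mice in the series, and all of them are labelled male. All were adult C57 BL/6J animals. The SI mice, numbers 7, 8, 25, 27, 33, 38 and 39, lived singly from weaning to adulthood, and the GH mice, numbers 1, 2, 3, 15, 16, 22, 23 and 24, lived several to a cage. Each mouse gave 1 RNA-seq library from polyA-selected hippocampal RNA, so the replicates are separate animals. The labels do not name cages, so some GH mice may have shared a cage and may not be independent. The comparison was made on 15 mice and again on the 12 left when SI mice 25, 33 and 39 were taken out together. Levels are in CPM, the counts of a gene scaled to its library's TMM-adjusted size, and Log2FC is the log2 ratio of SI to GH.

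The hippocampus holds the dentate gyrus and the CA fields, whose excitatory neurons carry spatial and contextual memory and help to restrain the hormonal stress response. When these neurons are driven strongly, they switch on immediate early genes such as Fos, Arc and Egr1 within minutes, without new protein synthesis. Their excitatory synapses rest on a dense protein scaffold under the postsynaptic membrane, built from the Dlg, Dlgap, Shank and Homer families.

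No gene differed between SI and GH in the 15 males at an adjusted p under 0.05 (edgeR quasi-likelihood test with 2 surrogate variables, 0 of 15833 genes, 0%). The lowest adjusted p was 0.295. At an unadjusted p under 0.05, 2060 genes (13%) stood out, 891 of them higher in SI (5.63%) and 1169 lower (7.38%). In the 12 males, with 4 surrogate variables, 1 of 16241 genes passed (0.00616%), and 1021 (6.29%) had an unadjusted p under 0.05, 473 higher (2.91%) and 548 lower (3.37%). The 1 gene passing was ENSMUSG00000102070, which has no symbol in the reference used. It had counts in 2 of the 4 SI libraries and in 3 of the 8 GH libraries and none in the others, and its Log2FC was -0.13 (unadjusted p = 0.951) without surrogate variables. With all mice kept, a gene named below is therefore given as a measured difference that did not pass correction, beside the share of all genes at the same unadjusted level.

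These counts turned on the tool and on single mice. DESeq2 with the same number of surrogate variables called 44 genes in 15 mice and 26 in 12. The number of surrogate variables was estimated anew in each fit. With SI mouse 27 left out, edgeR called 2414 of 15790 genes in the 15-mouse comparison (15.3%), 968 higher (6.13%) and 1446 lower (9.16%), again with 2 surrogate variables, and 1259 of 16347 in the 12-mouse one (7.7%), with 3 in place of 4. With SI mouse 38 left out of the 15 and 1 surrogate variable it called 128 genes, while 1 surrogate variable with all 15 mice kept called 0. The number of variables was the same in these fits, but the variable itself was estimated on different mice. With both SI mouse 27 and surrogate variables left out, 0 genes passed in either comparison, with 5878 and 1835 at an unadjusted p under 0.05. What sets SI mouse 27 apart in the fit with surrogate variables was not tested.

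SI mice 25, 33 and 39 stood apart from the other 12 males. They lay at 61.4 to 99.5 on the first principal component of log2 CPM (59.1% of the variance), against -35.2 to 1.34 for the remaining 12. Their libraries held more of short transcripts and less of long ones. In the shortest length quintile (204 to 1728 bases) the median gene was 0.48 to 0.69 log2 units above its mean over the 15 males in these 3 mice and between -0.34 and 0.02 in the others. In the longest quintile (from 4868 bases) it was -0.55 to -0.45 against -0.10 to 0.26. These 3 libraries had 18809307 to 25609585 counts. Of the other SI libraries, that of SI mouse 8 had 19349259 and the rest had 28047198 to 58232296. GH libraries had 33433048 to 66575824. The part of depth in the position of these 3 libraries was not tested. Across genes, Log2FC without surrogate variables followed transcript length with a Spearman rho of -0.63 in 15 mice and -0.03 in 12. With surrogate variables rho was -0.30 and -0.10. Genes are not independent replicates, and these rhos are descriptions.

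**Figure D1:**
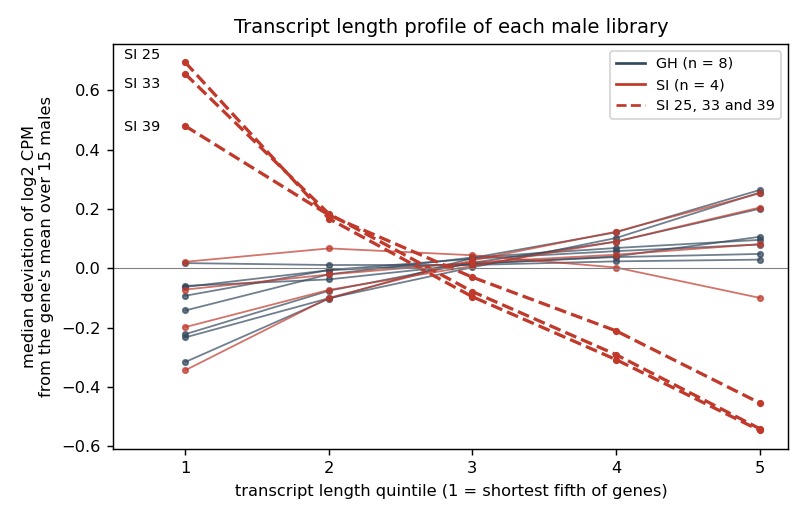
Median deviation of log2 CPM from each gene's mean over the 15 males (y axis, log2 units) by transcript length quintile (x axis, shortest to longest), 1 line per library. The dashed lines of SI mice 25, 33 and 39 start at 0.48 to 0.69 and end at -0.55 to -0.45, while the other 12 lines start at -0.34 to 0.02 and end at -0.10 to 0.26.

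Genes of the translation and respiration machinery were high in these libraries. The 78 cytosolic ribosomal protein genes averaged 8.55 to 9.02 log2 CPM in SI mice 25, 33 and 39 and 7.04 to 7.88 in the other 12 males, without overlap. The 76 nuclear genes of the respiratory chain averaged 7.85 to 8.26 in the 3 and 6.55 to 7.17 in the others. Without surrogate variables, 68 of the 78 ribosomal genes were higher in SI at an unadjusted p under 0.05 in 15 mice, where 19.8% of all genes were, with a median Log2FC of 0.67. In the 12 mice, also without surrogate variables, 0 of 78 were (2.32% of all genes) and the median was -0.10. With surrogate variables the median was -0.03 in 15 mice, and Rpl24, a protein of the large ribosomal subunit, had the smallest p of the list and was lower in SI (Log2FC -0.17 ± 0.07 SE, unadjusted p = 0.0269). Of the respiratory chain genes 3 of 76 were higher at that level with surrogate variables (5.63% of all genes), among them Cox5a, a subunit of cytochrome c oxidase (Log2FC 0.17 ± 0.06), and Atp5d, the delta subunit of ATP synthase (0.17 ± 0.08).

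The most extreme values in the 3 libraries came from genes with little or no signal elsewhere. ENSMUSG00000101249, without a symbol, had 7616, 6554 and 3216 CPM in SI mice 25, 33 and 39 and from 0 to 1.28 CPM in the other 12. Sh2d1a, an adaptor of lymphocyte signalling, had 21.4, 15.6 and 10.6 CPM in the 3 and at most 4.09 in the others. Gp1bb, a platelet glycoprotein, had 28.2, 5.87 and 3.08 CPM in the 3 and at most 0.588 in the others. Among genes low in these libraries, ENSMUSG00000094708 had no counts in SI mice 25, 33, 38 and 39, 136 CPM in SI mouse 27 and 184 to 342 CPM in the 10 remaining males.

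Among the genes with the smallest p in 15 mice, the 8 lower in SI included synaptic, signalling and cytoskeletal genes. Gfod1, an oxidoreductase-like protein, had 60.6 to 160 CPM in SI (median 95.6) and 128 to 170 in GH (median 150), with 5 of the 7 SI mice below every GH mouse. Its Log2FC was -0.42 ± 0.08 (SE, unadjusted p = 6.97e-05, adjusted p = 0.295) and -0.25 ± 0.07 in 12 mice. Septin2, a GTP-binding filament protein, had 9.39 to 23.5 CPM in SI (median 14.8) and 22.8 to 31.0 in GH (median 26.7). All SI mice but number 27 lay below the GH range, and Log2FC was -0.52 ± 0.11 in 15 mice and -0.28 ± 0.08 in 12. Ccdc117, a coiled-coil protein, had 9.67 to 13.7 CPM in SI (median 11.2) and 14.1 to 18.3 in GH (median 16.2). Its groups did not overlap, with a Log2FC of -0.40 ± 0.08 in 15 mice and -0.23 ± 0.07 in 12.

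Bsn, which encodes the presynaptic scaffold Bassoon, had 181 to 658 CPM in SI (median 326) and 453 to 678 in GH (median 503). SI mice 7 and 8 lay within the GH range and the other 5 below it, and Log2FC was -0.34 ± 0.08 in 15 mice and -0.20 ± 0.04 in 12 (unadjusted p = 0.000313, adjusted p = 0.522). Without surrogate variables the 12 mice gave -0.12 (unadjusted p = 0.429). Sstr4, a somatostatin receptor, ranged from 0.765 CPM in SI mouse 25 to 21.3 in SI mouse 8 (median 9.58) against 13.1 to 22.7 in GH (median 14.7). The spread within SI thus exceeded the gap between the medians, and Log2FC was -0.51 ± 0.12 in 15 mice and -0.28 ± 0.09 in 12. The remaining genes of this set were Neurl1b, a ubiquitin ligase of the Notch pathway (Log2FC -0.45 ± 0.10), Frmpd3, a FERM and PDZ domain protein (-0.39 ± 0.09), and Ipcef1, a partner of cytohesin exchange factors (-0.32 ± 0.07). In 12 mice all 8 had a Log2FC between -0.28 and -0.20. With SI mouse 27 left out of the 15 all 8 passed correction, at -0.86 to -0.40 (9.16% of all genes were called lower there), and Gfod1 gave -0.51 (edgeR adjusted p = 0.00445).

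The 8 higher genes of smallest p included several that act on pre-mRNA. Slc16a11, a monocarboxylate transporter, had 12.7 to 19.7 CPM in SI (median 18.2) and 10.1 to 15.99 in GH (median 11.9), with 4 SI mice above the GH range. Its Log2FC was 0.43 ± 0.09 in 15 mice (unadjusted p = 0.000121, adjusted p = 0.295) and 0.32 ± 0.09 in 12. Srsf5, a serine and arginine rich splicing factor, had 163 to 213 CPM in SI (median 193) and 136 to 191 in GH (median 171), a Log2FC of 0.28 ± 0.06. Luc7l3, a protein of the U1 small nuclear ribonucleoprotein, had 102 to 500 CPM in SI (median 144) and 93.2 to 122 in GH (median 106). SI mouse 25 held the 500, 6 SI mice exceeded every GH mouse, and Log2FC was 0.34 ± 0.08 in 15 mice and 0.22 ± 0.05 in 12. Pabpn1, which sets the length of nuclear poly(A) tails, had 77.0 to 173 CPM in SI (median 107) and 67.0 to 94.0 in GH (median 75.3), a Log2FC of 0.30 ± 0.06. Slc26a10 (0.49 ± 0.11) and Ankrd24 (0.27 ± 0.06) were also among these genes, as were Csf2ra, a cytokine receptor subunit (0.39 ± 0.09), and Prkcd, a protein kinase C described below with the thalamus genes. The difference of Csf2ra depended on the model, since it was 0.19 in 15 mice without surrogate variables. With SI mouse 27 left out of the 15 all 8 higher genes passed correction too, at 0.26 to 0.81 (6.13% of all genes were called higher), and Slc16a11 gave 0.49 (edgeR adjusted p = 0.00457).

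**Figure D2:**
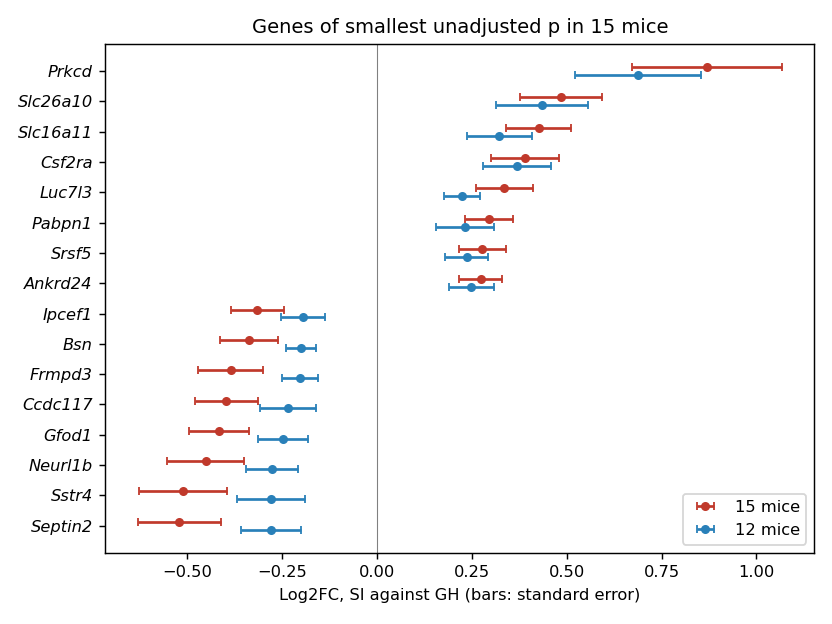
Log2FC of SI against GH (x axis) with its standard error for the 8 higher and 8 lower genes of smallest unadjusted p in 15 mice (red), with the same genes in 12 mice (blue). In 15 mice the higher genes lie from 0.27 to 0.87 and the lower genes from -0.52 to -0.32, and in 12 mice they lie from 0.22 to 0.69 and from -0.28 to -0.20.

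In the 12 mice some other genes came first. Pnisr, a nuclear protein that interacts with splicing factors, had 83.3 to 110 CPM in the 4 SI mice (median 92.5) and 76.6 to 86.5 in GH (median 82.3). It had a Log2FC of 0.31 ± 0.05 in 12 mice (unadjusted p = 9.44e-05, adjusted p = 0.522) and 0.24 ± 0.09 in 15. Snhg11, a neuronal long noncoding RNA, had a Log2FC of 0.56 ± 0.11 in 12 mice and 0.32 ± 0.13 in 15. Ece2, an endothelin-converting enzyme, gave 0.33 ± 0.07 and 0.25 ± 0.07. Ttc14 (0.37 ± 0.07 in 12 mice) and Rnpc3, a protein of the minor spliceosome (0.41 ± 0.09), gave 0.09 and 0.06 in 15 mice. Rnpc3 was highest in SI mouse 27, at 11.3 CPM against 6.36 to 8.71 in GH, and 4 of the 7 SI mice lay below the GH range. Among the lower genes were Dact3, a Wnt pathway inhibitor (-0.20 ± 0.04 in 12 mice and -0.22 ± 0.11 in 15), Begain, a partner of the PSD-95 scaffold (-0.17 ± 0.04 and -0.19 ± 0.09), and the kinases Map3k10 (-0.15 ± 0.03 and -0.18 ± 0.11) and Tnk2 (-0.15 ± 0.04 and -0.23 ± 0.09). For Map3k10, SI mouse 8 was the highest of all males, at 353 CPM against 270 to 344 in GH. SI mice 27 and 38 lay within that range and SI mouse 7, at 237, below it. For Tnk2, SI mice 8 and 38 lay within the GH range and SI mice 7 and 27 below it. Rpl37rt, a retrogene copy of Rpl37, gave -0.29 ± 0.06 and -0.58 ± 0.22. Its reads can be shared with its parent gene, so its value is uncertain.

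A gene whose groups do not overlap was rare. All 7 SI mice exceeded all 8 GH mice in 5 of 15833 genes (0.0316%) and lay below them in 4 (0.0253%). These genes were picked out after their values were seen, and their separation is a description. Ddx39b, an RNA helicase of splicing and mRNA export, had 113 to 135 CPM in SI (median 123.2) and 104 to 112 in GH (median 108), a Log2FC of 0.14 ± 0.05. The others above were Neil1, a DNA repair glycosylase (Log2FC 0.32 ± 0.09), Eno3, the muscle form of enolase (0.24 ± 0.09), Rdh16, a retinol dehydrogenase (0.47 ± 0.16), and ENSMUSG00000118608 (0.40). Below were Ccdc117, as given above, Cpped1, a phosphatase (-0.17 ± 0.05), Padi2, a peptidylarginine deiminase of oligodendrocytes and other glia (-0.19 ± 0.06), and Ptgs1, the constitutive cyclooxygenase (-0.14 ± 0.07). Cpped1 had 26.7 to 35.2 CPM in SI (median 33.3) and 36.9 to 39.8 in GH (median 38.3). With SI mice 25, 33 and 39 left out, 19 genes lay wholly above (0.12%) and 10 wholly below (0.0632%).

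Most immediate early genes had lower values in SI, and how many stood out in 12 mice depended on the model. Of 18 tested, 16 had a Log2FC below 0 in 15 mice, where 50.7% of all genes did, and 9 were lower at an unadjusted p under 0.05, where 7.38% of all genes were. None was higher at that level, the median Log2FC was -0.24 against -0.002 over all genes, and no adjusted p passed. In the 12 mice with surrogate variables all 18 were below 0 (52.3% of all genes) and 7 were lower at that level (3.37% of all genes), with a median of -0.31. Without surrogate variables 4 of 18 were lower at that level in 12 mice (1.04% of all genes). There 15 of 18 were below 0 (49.6% of all genes), with a median of -0.18. Limma-voom with quality weights gave 5 of 18 in 15 mice (2.37% of all genes) and 0 in 12 (1.05%), where 13 were below 0 and the median was -0.055. The position digit of the labels as a factor gave 5 in 15 mice (2.05%) and 0 in 12 (0.308%). The mean of the list ran from 4.01 log2 CPM in SI mouse 25 to 5.19 in SI mouse 8 and from 4.53 in GH mouse 1 to 5.29 in GH mouse 2. SI mice 7 and 8, at 4.99 and 5.19, were the highest of SI, and the SI range held all GH mice but numbers 2 and 15. The other 5 SI mice lay at 4.01 to 4.61, a stretch that held GH mouse 1 alone of the GH mice.

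Of these genes Fos, Nr4a1 and Dusp1 had an unadjusted p under 0.05 in 15 and in 12 mice, with and without surrogate variables, so their upstream sequence is shown. The cyclic AMP response element, which binds CREB and drives many activity-dependent genes, is TGACGTCA, and its half-site is TGACG. The lines below give the 250 bases before the transcription start (RefSeq, GRCm38.p6), 5′ to 3′ on the gene's strand, and capitals mark each half-site on either strand, the full element being 2 overlapping half-sites.
Fos, chr12:85473640-85473889, plus strand: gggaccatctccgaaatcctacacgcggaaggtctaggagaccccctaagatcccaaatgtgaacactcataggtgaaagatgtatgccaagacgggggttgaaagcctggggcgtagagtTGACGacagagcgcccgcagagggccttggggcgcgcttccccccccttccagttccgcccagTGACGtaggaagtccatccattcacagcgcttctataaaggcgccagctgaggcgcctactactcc
Nr4a1, chr15:101266596-101266845, plus strand: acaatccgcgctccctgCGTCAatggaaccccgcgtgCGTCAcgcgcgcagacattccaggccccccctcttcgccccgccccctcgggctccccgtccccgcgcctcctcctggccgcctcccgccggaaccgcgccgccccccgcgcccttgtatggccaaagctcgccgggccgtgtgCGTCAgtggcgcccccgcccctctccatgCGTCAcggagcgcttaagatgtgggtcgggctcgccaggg
Dusp1, chr17:26508473-26508722, minus strand: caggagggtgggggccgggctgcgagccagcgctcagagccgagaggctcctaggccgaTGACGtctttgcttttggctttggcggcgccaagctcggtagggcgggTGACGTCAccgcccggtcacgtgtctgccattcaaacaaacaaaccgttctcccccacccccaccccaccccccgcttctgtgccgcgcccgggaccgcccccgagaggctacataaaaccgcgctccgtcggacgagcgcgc
Fos holds 2 half-sites, Nr4a1 holds 4 and Dusp1 holds 3, of which 2 overlap in its 1 full element. The half-site occurs in 17.8% and the full element in 1.55% of 32851 promoter windows of the same length. The CArG box, the serum response factor site, was searched on the same windows, occurs in 1.47% of them, and has no match in these 3 windows. Sequence further upstream was not searched, so a site there would be missed. A match is a string of letters and says nothing about binding in these mice.

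Fos, a subunit of the AP-1 transcription factor, had 2.38 to 11.5 CPM in SI (median 7.76) and 6.17 to 19.2 in GH (median 14.97). All 7 SI mice lay below 7 of the 8 GH mice, and GH mouse 1, at 6.17, overlapped with them. Its Log2FC was -0.87 ± 0.29 in 15 mice (unadjusted p = 0.00775, adjusted p = 0.312) and -0.82 ± 0.35 in 12 (unadjusted p = 0.0369, adjusted p = 0.754). Nr4a1, an orphan nuclear receptor, had 31.1 to 64.3 CPM in SI (median 39.003) and 37.4 to 82.8 in GH (median 70.2). Here too GH mouse 1 was the low GH mouse, and Log2FC was -0.56 ± 0.17 and -0.50 ± 0.22 in 15 and 12 mice. Dusp1, a phosphatase that turns off MAP kinases, had 11.3 to 29.1 CPM in SI (median 17.8) and 16.8 to 35.5 in GH (median 28.5), with a Log2FC of -0.52 ± 0.18 and -0.52 ± 0.21.

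Egr2, a zinc finger factor, had the lowest Log2FC of the list, -1.43 ± 0.37 in 15 mice (unadjusted p = 0.00134, adjusted p = 0.295) and -0.97 ± 0.46 in 12. It had 0.340 to 3.35 CPM in SI (median 0.860) and 0.935 to 5.07 in GH (median 3.60), and 4 SI mice lay below every GH mouse. Arc, a cytoskeletal protein of active synapses, had 31.8 to 160 CPM in SI (median 78.8) and 62.5 to 194 in GH (median 161). Its Log2FC was -0.75 ± 0.25 in 15 mice and -0.61 ± 0.32 in 12, where the unadjusted p was 0.083. Fosb, a partner in AP-1 that accumulates with repeated stimulation, had 3.74 to 10.4 CPM in SI (median 6.15) and 8.17 to 11.04 in GH (median 8.76). SI mice 7 and 8 lay within the GH range and the other 5 below it, and Log2FC was -0.38 ± 0.09 and -0.34 ± 0.11. Fosl2 (-0.30 ± 0.08), Egr1 (-0.34 ± 0.12) and Egr3 (-0.19 ± 0.06) were the other members of the list under that level in 15 mice.

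**Figure D3:**
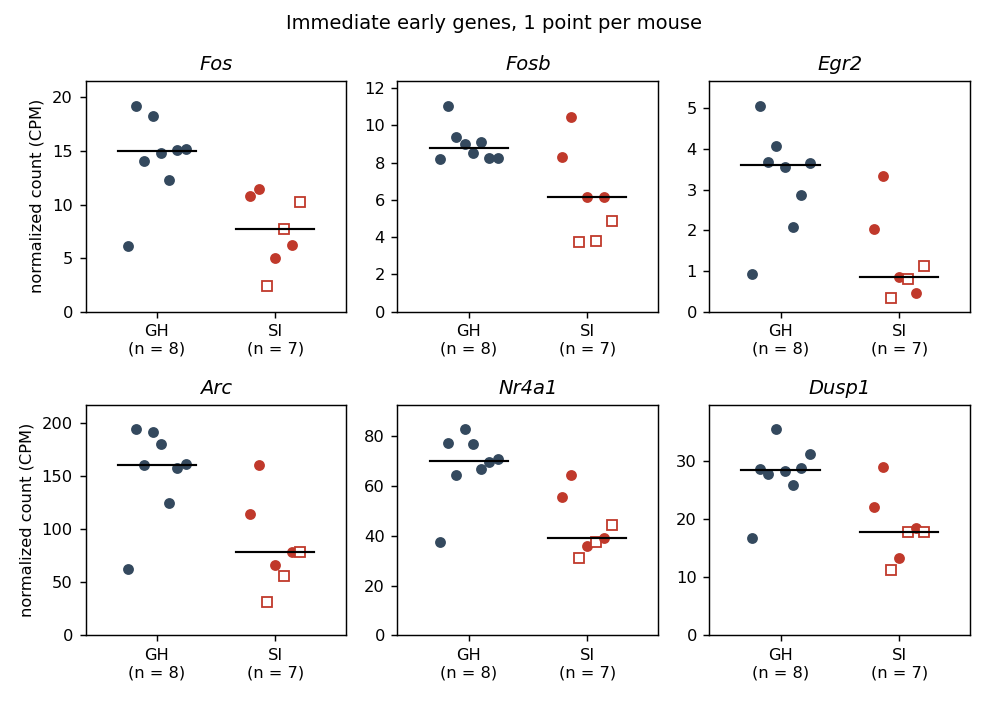
Normalized counts (CPM, y axis from 0) of 6 immediate early genes in the 8 GH and 7 SI males, 1 point per mouse, with the median of each group as a line and SI mice 25, 33 and 39 as open squares. GH mouse 1, at 6.17 CPM of Fos and 62.5 of Arc, is the lowest GH point of each panel, and SI mouse 8, at 11.5 and 160, is the highest SI point.

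Leaving out single mice moved these counts little in 15 mice, with 8 to 11 of 18 lower and a median of -0.28 to -0.17, and more in 12. With GH mouse 1 left out, 11 of the 18 genes in 15 mice and 14 of 18 in 12 were lower at an unadjusted p under 0.05, where 7.93% and 3.15% of all genes were. With SI mouse 27 left out of the 15, 9 were (17.6% of all genes) and 4 of the 18 passed correction, where 15.3% of all genes did. With it left out of the 12, with 3 surrogate variables, 3 were (14.3% of all genes), with a median of -0.10 and 1 gene higher at that level. Without both SI mouse 27 and surrogate variables, the 12-mouse comparison had 1 gene lower (4.46% of all genes) and 1 higher, with a median of -0.05. With GH mouse 2 left out of the 12, also with 3 surrogate variables, 2 of 18 were (1.53% of all genes), and with 3 surrogate variables and all 12 mice kept 4 were (2.13%). In bulk tissue fewer cells of a type and less RNA per cell cannot be told apart, so these levels do not say whether fewer neurons were active or each less so.

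The housing difference of these genes was compared with that in the 15 females in 1 fit of 30 mice. The median Log2FC of the 18 genes was -0.18 in males and 0.02 in females, and 6 had an unadjusted p under 0.05 for the interaction of sex and housing, where 7.48% of all 16391 genes did. These were Fosb, Egr1, Egr2, Egr3 and Nr4a1 and the secreted pentraxin Nptx2. The lowest adjusted p of the list was 0.604, so no sex difference passed correction. Over all genes 0 interactions passed (0%, lowest adjusted p 0.208), 1226 genes had an unadjusted p under 0.05, and with SI males 25, 33 and 39 left out 0 passed, with 1502 of 16645 genes (9.02%) at the unadjusted level.

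Genes of the postsynaptic density had smaller differences. Of 20 scaffold genes 17 had a Log2FC below 0 in 15 mice and 10 were lower at an unadjusted p under 0.05 (7.38% of all genes), with a median of -0.20. In 12 mice 10 were as well (3.37% of all genes), with a median of -0.09, and without surrogate variables 0 of 20 were (1.04% of all genes), with a median of -0.08. Limma-voom with quality weights turned the 12-mouse median to 0.026, with 0 of 20 lower (1.05% of all genes). Dlg2, which encodes PSD-93, had 84.8 to 314 CPM in SI (median 174) and 265 to 356 in GH (median 290). SI mice 8 and 27 lay within the GH range and the other 5 below it, and Log2FC was -0.39 ± 0.10 in 15 mice (unadjusted p = 0.00129) and -0.13 ± 0.04 in 12. Sipa1l1, a spine-shaping GTPase activator, had 124 to 451 CPM in SI (median 256) and 358 to 460 in GH (median 411), with a Log2FC of -0.34 ± 0.09 and -0.12 ± 0.04. The master scaffolds Shank1 (-0.33 ± 0.10), Shank2 (-0.33 ± 0.10) and Shank3 (-0.41 ± 0.14) were lower together, as were Dlgap2 (-0.34 ± 0.10), Dlg1 (-0.21 ± 0.08), the adaptors Homer1 (-0.23 ± 0.08) and Homer2 (-0.35 ± 0.12), and Iqsec2, an Arf exchange factor (-0.24 ± 0.08). The 3 libraries rich in short transcripts held the lowest means of this list, 7.14 to 7.30 log2 CPM against 7.69 to 8.15 in the other 12 males. With each library's length and GC trend removed, and no surrogate variables, Shank1, Homer1 and Homer2 had a Log2FC above 0 in 15 mice, at 0.048, 0.023 and 0.28. The median of the list in 15 mice was -0.10 in that fit, with 12 of 20 below 0, 7 lower (9.33% of all genes) and 2 higher, against -0.29 before the correction. With surrogate variables the correction moved it from -0.20 to -0.11, with 8 of 20 lower (4.53% of all genes). With SI mouse 27 left out, 10 of the 20 genes passed correction in 15 mice (15.3% of all genes) and 7 in 12 (7.7%). At an unadjusted p under 0.05, 1 and 4 were higher there, where 13.6% and 14.2% of all genes were.

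On the presynaptic side and among channels and receptors few genes stood out. In the active zone and release list 4 of 32 genes were lower at an unadjusted p under 0.05 (7.38% of all genes) and 1 higher, with a median of -0.02, and the lowest p after Bsn was that of Rims1, an active zone scaffold (-0.46 ± 0.13 in 15 mice and -0.13 ± 0.07 in 12). Of 14 ionotropic glutamate receptor genes 2 were lower, Gria4 (-0.20 ± 0.07), an AMPA receptor subunit, and Grik3 (-0.13 ± 0.06), a kainate receptor subunit, and 1 was higher. Of 12 GABA-A receptor genes 1 was lower, Gabrb2 (-0.54 ± 0.16), which had 1.70 CPM in SI mouse 25 and 76.0 in SI mouse 8 against 47.8 to 86.4 in GH. Of 27 voltage-gated channel genes 3 were lower and 0 higher, with Cacna1i, a T-type calcium channel (-0.26 ± 0.06), and Kcnh1, a potassium channel (-0.22 ± 0.07), first. Without surrogate variables the medians of these 4 lists lay at -0.22 to -0.13 in 15 mice and at -0.046 to 0.078 in 12. Of 24 chromatin modifiers 7 were lower in 15 mice (7.38% of all genes) and 3 in 12 (3.37%), among them the histone methyltransferase Ash1l (-0.28 ± 0.08 and -0.13 ± 0.04) and the histone demethylase Phf2 (-0.23 ± 0.07 and -0.11 ± 0.05), and none was higher. Without surrogate variables 3 were lower (10.3% of all genes) and 3 higher (19.8%) in 15 mice, and in 12 mice 0 were lower (1.04%).

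The stress and signalling lists showed few differences. Of 16 glucocorticoid response genes 13 had a Log2FC below 0 in 15 mice (50.7% of all genes), with a median of -0.15, and 2 were lower at an unadjusted p under 0.05 (7.38% of all genes), Pdk4, a kinase that restrains pyruvate dehydrogenase (-0.28 ± 0.12), and Errfi1, an inhibitor of the EGF receptor (-0.20 ± 0.09). In 12 mice 0 of 16 were, and without surrogate variables 4 were lower and 3 higher in 15 mice (10.3% and 19.8% of all genes). Among 23 neurotrophin, neuropeptide, cytokine and monoamine genes often studied in isolated rodents, 3 were higher and 0 lower at that level in 15 mice, where 5.63% of all genes were higher. Without surrogate variables 6 were higher and 1 lower, where 19.8% and 10.3% of all genes were. Drd2, a dopamine receptor, had 2.68 to 5.17 CPM in SI (median 3.16) and 2.11 to 3.22 in GH (median 2.50), a Log2FC of 0.53 ± 0.14. Penk, the enkephalin precursor, had 23.8 to 36.7 CPM in SI (median 27.1) and 18.7 to 26.8 in GH (median 21.3), a Log2FC of 0.22 ± 0.09. In 12 mice Drd2 gave 0.26 ± 0.14 and Penk 0.12 ± 0.10. Drd2 is also 1 of 6 striatum genes listed as marks of dissection. SI mouse 38 held both the 5.17 CPM and the highest mean of that list among the 15 males (3.26 log2 CPM). Of the 6 genes 1 was higher at that level in 15 mice (5.63% of all genes) and 0 in 12 (2.91%). The part of dissection in the Drd2 difference was not tested. Of 19 chaperone genes 0 had an unadjusted p under 0.05 in either direction in 15 mice (edgeR with surrogate variables), and 4 were higher without them (19.8% of all genes). Of 17 cholesterol synthesis genes 2 were lower (7.38% of all genes), including lanosterol synthase Lss (-0.29 ± 0.07 and -0.12 ± 0.06 in 15 and 12 mice). Another, Fdps, was higher (5.63% of all genes), at 0.21 ± 0.09 and -0.04 ± 0.06.

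Among markers of cell types, few genes stood out at an unadjusted p under 0.05. The dentate granule cell list averaged 4.98 to 5.55 log2 CPM in SI and 5.14 to 5.66 in GH, and the CA1 and CA3 pyramidal list 5.05 to 5.38 and 5.08 to 5.26, so all libraries carried both sets. Of 8 dentate genes 2 were higher at that level in 15 mice (5.63% of all genes), C1ql2 (0.24 ± 0.10) and Plk5 (0.25 ± 0.11), and 0 in 12. Of 14 astrocyte genes 12 had a Log2FC below 0 in 15 mice, with a median of -0.17, and 3 were lower at that level (7.38% of all genes), with Fgfr3, a growth factor receptor (-0.26 ± 0.09), and Slc1a2, the main glutamate transporter (-0.36 ± 0.13), first. In 12 mice 1 astrocyte gene was lower (3.37% of all genes) and 1 higher (2.91%), with a median of -0.008 (-0.13 without surrogate variables). In the fit of all 30 mice 9 of the 14 were lower in SI males (10.5% of all genes), with a median of -0.19. Among 10 microglia genes 0 had an unadjusted p under 0.05 in 15 mice (edgeR with surrogate variables) and 5 were higher without surrogate variables (19.8% of all genes), and the list averaged 5.62 to 5.81 log2 CPM in SI mice 25, 33 and 39 and 4.79 to 5.28 in the other 12. Single genes stood out among oligodendrocyte (Opalin, 0.20 ± 0.07), pericyte and endothelial (Vtn, 0.32 ± 0.10), interneuron (Slc32a1, 0.20 ± 0.07, but -0.036 without surrogate variables and -0.023 without SI mouse 38) and immature neuron genes (Calb2, 0.50 ± 0.16, and -0.00023 in 12 mice). All 13 mitochondrially encoded genes had a Log2FC below 0 in 15 mice, 1 of them at that level (mt-Nd4l, -0.55 ± 0.23), and in 12 mice it was -0.00065 for mt-Nd4l and the list median was 0.10. Without surrogate variables 8 of the 13 were above 0 in 15 mice, with a median of 0.018, and in 12 mice all 13 were below 0 with a median of -0.22.

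Genes of tissue next to the hippocampus differed more between mice than between groups. Of 6 thalamus genes all had a Log2FC above 0 in 15 mice and 5 were higher at an unadjusted p under 0.05 (5.63% of all genes), with a median of 0.74, and in 12 mice 4 were, with (2.91% of all genes) and without (2.32%) surrogate variables. The list averaged 3.91, 3.98 and 4.44 log2 CPM in SI mice 25, 27 and 38 and 2.77 to 3.32 in the other 12 males, which include all GH mice. Tcf7l2, a Wnt pathway factor of thalamic neurons, had 5.78 to 38.1 CPM in SI (median 10.2) and 5.68 to 9.22 in GH (median 6.51), with a Log2FC of 1.05 ± 0.29 and 0.61 ± 0.19 in 15 and 12 mice. Prkcd had 11.5 to 52.6 CPM in SI (median 27.2) and 11.8 to 28.0 in GH (median 17.2), and only SI mice 27 and 38 exceeded the GH range (Log2FC 0.87 ± 0.20). Tnnt1, a troponin expressed in thalamus, had 0.966 to 15.04 CPM in SI (median 3.61) and 0.970 to 2.20 in GH (median 1.54), a Log2FC of 1.13 ± 0.39 and 1.39 ± 0.25. Zic1 (0.61 ± 0.15), Lef1 (0.48 ± 0.17) and Six3, a factor of ventral forebrain and reticular thalamus (0.82 ± 0.24 and 0.94 ± 0.20), were higher too. With SI mouse 38 left out of the 15 and 1 surrogate variable, 1 of the 6 genes was higher at that level (11.6% of all genes), against 4 with 1 surrogate variable and all mice kept (8.64%), and with SI mice 25, 27 and 38 left out Zic1 and Lef1 had a Log2FC of -0.052 and -0.045. None of the 6 was at 0 in any library.

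Choroid plexus genes split the males across both groups. The 17 genes averaged 0.36 to 1.96 log2 CPM in mice 1, 2 and 3 (GH) and 7 and 8 (SI) and 3.91 to 4.72 in the other 10. With surrogate variables 0 of 17 differed with housing at an unadjusted p under 0.05 in 15 or in 12 mice. Log2FC was below 0 for 14 of 17 in 15 mice (median -0.18) and for 6 in 12 (median 0.096). Without surrogate variables 1 was lower at that level in 15 mice (10.3% of all genes), with 8 below 0 and a median of 0.074. In 12 mice 0 were lower at that level, but all 17 were below 0 (median -0.47). Ttr, the transthyretin of choroid plexus, ranged from 17.2 to 4038 CPM in SI and from 20.7 to 2089 in GH. SI mice 7 and 8, both of the low set, were also the SI mice in which Bsn and Fosb lay within the GH range. All other SI mice have animal numbers above those of every GH mouse. For them, animal order and housing cannot be told apart. With the 5 mice of low choroid plexus level left out, 11 of 18 immediate early genes and 10 of 20 scaffold genes were lower at an unadjusted p under 0.05 in the 10 mice left (1 surrogate variable), where 11.2% of all genes were. The 1 gene passing correction there was Nr4a1, with a Log2FC of -0.92 (edgeR adjusted p = 0.024). This removal took out SI mice 7 and 8, the highest of SI in the immediate early (4.99 and 5.19 log2 CPM) and scaffold means (7.91 and 8.15). It also took out GH mouse 1, the lowest of GH in the immediate early mean (4.53) and in Nr4a1, and GH mouse 2, the highest in that mean (5.29). SI mice 25, 33 and 39, with the lowest scaffold means (7.14 to 7.30), stayed in. Taking out the highest SI mice lowers the SI mean by itself, so these counts are a description. The part of dissection in the housing differences was not tested.

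**Figure D4:**
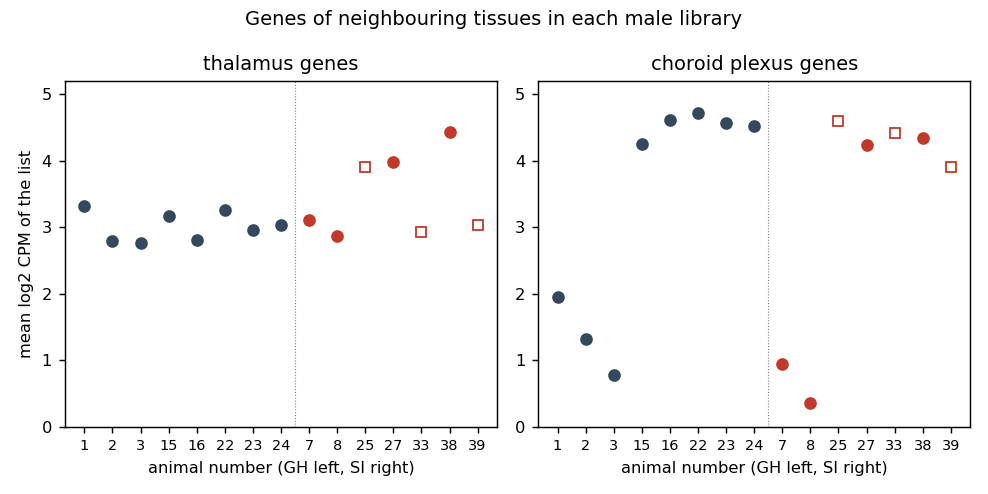
Mean log2 CPM (y axis) of 6 thalamus genes (left) and 17 choroid plexus genes (right) in each male, ordered by animal number with GH left and SI right of the dotted line and SI mice 25, 33 and 39 as open squares. SI mice 25, 27 and 38 exceed all other mice in thalamus genes, and mice 1, 2, 3, 7 and 8 lie at 0.36 to 1.96 in choroid plexus genes, below the other 10 at 3.91 to 4.72.

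Depth differed with housing as well. SI males had 18809307 to 58232296 counts (median 25609585) and GH males 33433048 to 66575824 (median 49542256). The mean difference was -16961429 counts (two-sided p = 0.0392 by exact permutation of all 6435 splits, adjusted over 6 comparisons 0.117), and in 12 mice -10273140 (exact p = 0.273). SI males also had fewer genes with any count, by -173 of 17477 on average (exact p = 0.00528, adjusted 0.0317, and -118 with exact p = 0.0687 in 12 mice). The mitochondrial share of counts averaged 6.65% in SI and 6.64% in GH. Of 4 Y-linked genes checked, Ddx3y and Eif2s3y had at least 374 counts in every male library and at most 3 in any female library, as their labels say. Kdm5d and Uty separated the sexes less cleanly. They had up to 97 and 75 counts in a female library, against at least 215 and 172 in every male library.

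**Figure D5:**
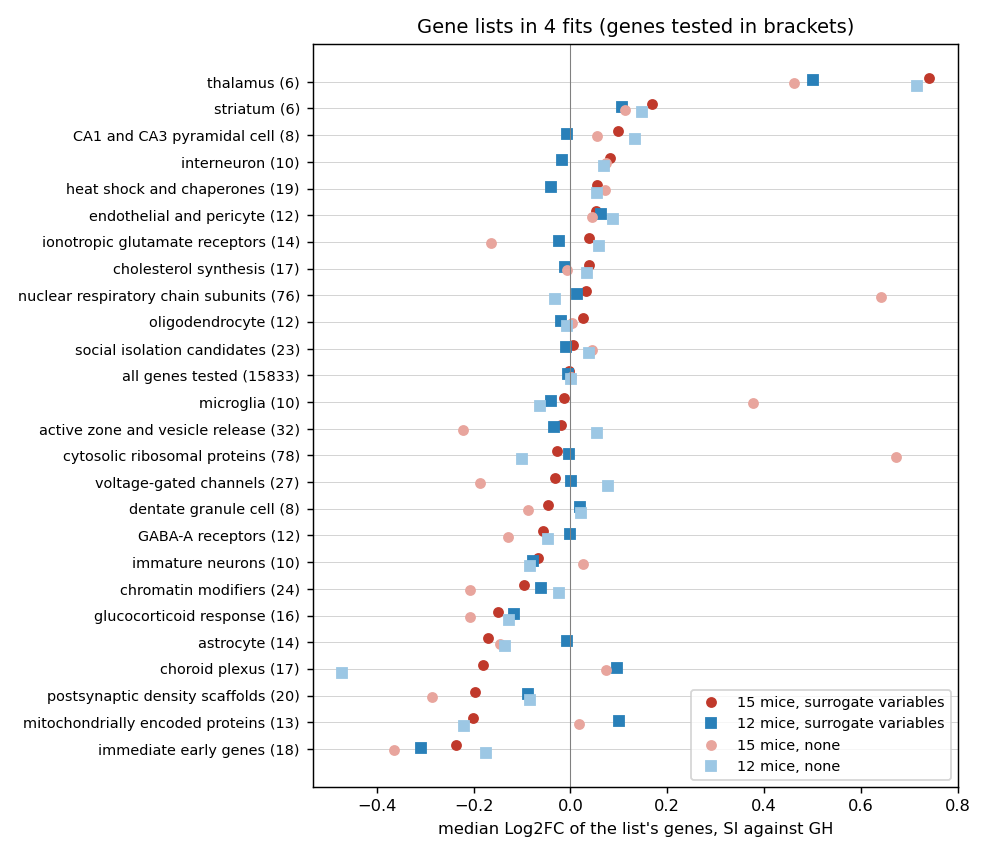
Median Log2FC of SI against GH (x axis) of each gene list, with the number of genes tested in 15 mice in brackets, in fits of 15 mice (circles) and 12 mice (squares) with (dark) and without (pale) surrogate variables. Immediate early genes lie at -0.36 to -0.18 and thalamus genes at 0.46 to 0.74 in the 4 fits, while ribosomal protein genes lie at 0.67 in 15 mice without surrogate variables and at -0.10 to -0.003 in the other 3.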

How the data were processed

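RNA-seq libraries of 15 male mice (7 SI, 8 GH) were analysed from the series of 30. Read trimming was done with Trimmomatic 0.39 and quantification with Salmon 1.8.0 (submitters' notes and methods). The authors deposited whole-number counts per Ensembl gene and mouse, not normalized. The submitters' processing notes name GRCm39. Whether counting used strand is not given in the sources used here. The table held 17477 IDs with at least 100 counts each, of which 16439 (94.1%) had a symbol, and 15964 (91.3%) a transcript length from GENCODE vM1 on NCBIM37. Promoter sequences are RefSeq's on GRCm38.p6 and were matched by symbol.

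The tests used edgeR 4.0.16 in R 4.3.3. Low genes were removed by filterByExpr (count of at least 10, total of at least 15), and libraries were scaled by TMM. Surrogate variables came from svaseq (sva 3.50.0, 20 permutations, seed 1), and genes were tested by glmQLFit and glmQLFTest with Benjamini-Hochberg adjustment over all genes at 0.05. SE is the absolute Log2FC divided by the root of the F statistic. The interaction of sex and housing was fitted on all 30 mice. Single library values were compared by exact permutation. Log2 CPM used a prior count of 2. The steps were tested on simulated data. Same-group libraries differed by more than sampling noise in every pair (chi-square per degree of freedom at least 14.3), and p-values measure the spread between mice. In fits with surrogate variables, they measure only the spread left after these variables, which were estimated on the same mice. Total counts ran from 18809307 to 66575824.

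Named are the 8 higher and 8 lower genes of smallest p in 15 and in 12 mice (symbol, mean of at least 1 CPM), the 2 genes of smallest p of each list (given by counts alone where neither was under 0.05 or for lists near the share of all genes), genes of high loading on the first component, and other list members for their place in a list. The result of 1 gene is not reported here. The lists, partly from an earlier analysis of these data, and the comparison itself were chosen with earlier results of these data known. Alternatives were other numbers of surrogate variables, DESeq2 1.42.0, limma-voom (limma 3.58.1) with quality weights, other filters and size factors, all groups in 1 fit, the position digit of the labels, a lowess correction (span 0.3) of the transcript length and GC trend within libraries, the choroid plexus mean as a covariate, and leaving out mice.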

Additional observations from a re-analysis of the deposited data

Results flagged for a closer look

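The 83 genes followed in the next section were examined for far mice, as were total counts, genes detected and the mitochondrial share. Other genes named above, such as Gp1bb and Sh2d1a, were not examined. The highest and lowest mouse of the 7 SI or 8 GH males was compared with the rest of its group. The measure was the gap to the nearest mouse over the range of the group (Dixon's ratio at 95%). In 172 such groups of values 9 mice lay far out, and chance alone gives about 1 in 20 groups. Among GH males, mouse 1 was far below the others for Nr4a1 (37.4 CPM against a median of 70.2, ratio 0.595) and far above for Tcf7l2 (9.22 against 6.51, ratio 0.539). GH mouse 2 was far above for Fosb (11.04 against 8.76, ratio 0.584) and Ptgs1 (11.2 against 10.5, ratio 0.557). GH mouse 15 was far above for Slc16a11 (15.99 against 11.9, ratio 0.638), and GH mouse 24 for mt-Nd4l (1017 against 731, ratio 0.555). Among SI males, mouse 38 was far above for Tcf7l2 (38.1 against 10.2, ratio 0.655) and Drd2 (5.17 against 3.16, ratio 0.650), and mouse 8 for Neurl1b (83.7 against 55.6, ratio 0.570).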

How the results depend on the processing

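In 15 mice 0 genes passed correction under the edgeR and limma-voom settings tried on all 15, and 44 and 304 did by DESeq2 with and without surrogate variables. Leaving out 1 mouse gave 0 to 2414 genes: 2414 without SI mouse 27, 128 without SI mouse 38, 1 without SI mouse 8 and 0 otherwise. Chosen after seeing the data, leaving out SI mice 25, 27 and 38 gave 1411, the 5 mice of lowest choroid plexus level 1, and SI mouse 27 and surrogate variables together 0. In 12 mice, where 1 gene passed, 26 did by DESeq2 with surrogate variables and 0 without them, and 0 did with 0, 1 or 3 surrogate variables, limma-voom, no filter, at least 10 counts in every library, all groups in 1 fit, the position digit, the length and GC trend removed, the choroid plexus mean, or without SI mouse 27 and surrogate variables. Leaving out 1 mouse gave 0 to 1259, with 1259 without SI mouse 27 and 2 without GH mouse 16. The causes were not tested.

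The 2060 genes at an unadjusted p under 0.05 in 15 mice became 4761, 3158 and 1187 with 0, 1 and 3 surrogate variables. Without surrogate variables they became 5319 by DESeq2, 677 by limma-voom with quality weights, 1223 with the position digit, 3942 with the length and GC trend removed, 5749 with the choroid plexus mean and 5878 without SI mouse 27. They became 1021 without SI mice 25, 33 and 39, 3500 without the 5 mice of lowest choroid plexus level and 4396 without SI mice 25, 27 and 38. Without 1 mouse they ranged from 888 to 4926, the lowest being for GH 24, then 1114 for GH 16, 1123 for SI 33, 1206 for SI 25, 3266 for SI 7, 4182 for SI 38 and the highest for SI 27, with 1 surrogate variable for SI 8, SI 38 and GH 3 and 2 for the others. The number of surrogate variables was estimated anew in each fit, so it moved with some settings. The 1021 genes in 12 mice, with 4, became 681 with 3 alone, and with 3 they became 562 with no filter, 645 with at least 10 counts in every library and 533 with the length and GC trend removed. Without surrogate variables they became 545 by edgeR, 565 by DESeq2, 489 by limma-voom, 221 with the position digit, 620 with the choroid plexus mean and 1835 without SI mouse 27. Without 1 mouse they ranged from 536 (GH 2) to 4653 (SI 27), with 658 without SI 38 and 673 without GH 22, all 4 with 3 surrogate variables.

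The difference in total counts, -16961429, was -10273140 in 12 mice, that in genes detected, -173, was -118, and that in the mitochondrial share turned from 0.0074 to -0.85 percentage points. Of the 83 genes followed, with 2737 values, 26 values changed sign and 154 passed correction. Ttc14, from 0.09, ranged from -0.076 (without SI mouse 27) to 0.14 with 1 mouse left out, and was -0.073 without both SI mouse 27 and surrogate variables. Rnpc3, from 0.06, ranged from -0.19 (without SI mouse 27) to 0.13 with 1 mouse left out and was -0.036 without SI mouse 7. It was -0.24 without both SI mouse 27 and surrogate variables, -0.068 without SI mice 25, 27 and 38, -0.084 without surrogate variables, -0.071 by DESeq2 without them and -0.085 with the choroid plexus mean. Without SI mice 25, 27 and 38, Six3 was -0.25, Zic1 -0.052 and Lef1 -0.045. In 12 mice Fdps was -0.038, Calb2 -0.00023, C1ql2 -0.0028 and Atp5d -0.037. Slc32a1 ranged from -0.023 (without SI mouse 38) to 0.25 (without SI mouse 25) with 1 mouse left out. Without surrogate variables it was -0.036 by edgeR, -0.026 by DESeq2, -0.065 with the position digit, -0.041 with the length and GC trend removed, and -0.047 with the choroid plexus mean or without SI mouse 27. With the length and GC trend removed and no surrogate variables, Shank1 was 0.048, Homer1 0.023 and Homer2 0.28. No paired analysis was possible because the replicate numbers are animal numbers that no 2 groups share. Depth limits genes of few counts: Egr2 and Tnnt1 lie near 1 CPM in several libraries.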
